A study of Mus musculus with 16 samples.

Results

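The 10 genes described here belong to the unfolded protein response: Hspa5, Pdia4, Herpud1, Atf6, Ern1, Xbp1, Eif2ak3, Atf4, Ddit3 and Trib3. They were chosen by symbol from the 54532 entries of a bulk RNA sequencing count table of mouse brain, and all 10 were among the 17736 genes that passed the filter on low counts. The study set Ch25h, the gene of cholesterol 25-hydroxylase, which makes an oxysterol from cholesterol, against tau pathology. The 16 libraries, from females aged 9 months, formed 4 groups of 4. Mice with Ch25h intact made up Ch25h+/+ Tau-, read here as without a tau transgene, and Ch25h+/+ Tau+, read as with one. Mice without Ch25h made up Ch25h-/- Tau- and Ch25h-/- Tau+ in the same way. The labels give neither the tau line, its promoter nor the source of the Ch25h allele, and they do not say in words that each library came from its own mouse. All p-values therefore measure the spread between these libraries.

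The unfolded protein response is the reaction of a cell to unfolded protein in the endoplasmic reticulum (ER). Sensors in the ER membrane, PERK (Eif2ak3), IRE1α (Ern1) and ATF6 (Atf6), are held in check by the chaperone BiP (Hspa5). Once active, they slow translation and raise ATF4, splice the Xbp1 messenger RNA and release a fragment of ATF6, and these factors switch on chaperones, genes of protein disposal and, under lasting stress, Ddit3 and Trib3. The response has been studied in tau disease because phosphorylated PERK is seen in neurons with tau deposits. Gene counts show neither splicing of Xbp1, cleavage of ATF6 nor translation of Atf4, so they read only the amount of each messenger RNA.

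Short stretches of promoter are shown because they carry the response elements by which the pathway is known to act on its targets. Windows from 250 bases before to 50 bases after the start site (RefSeq, build GRCm38.p6) were held for 9 of the 10 genes, Atf6 being the exception, and both strands were searched. The ER stress response element, CCAAT and CCACG with 9 bases of any kind between them, was found in 39 of 32851 windows (0.119%), and Hspa5 was the only one of the 9 with it. The second form of the element, ATTGG and CCACG with 1 base of any kind between them, was in 12 windows (0.0365%), with Herpud1 the only one of the 9. The letters TGACGTG, the core of the element bound by ATF6 and XBP1, were in 661 windows (2.01%), here in Hspa5. The letters TGATGNAA, part of the element bound by ATF4 with a C/EBP partner, were in 1304 windows (3.97%), here in Herpud1 and Trib3. In the lines that follow, read 5′ to 3′ on the strand of the gene, capitals mark the match.
Hspa5 first element: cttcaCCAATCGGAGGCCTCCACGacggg
Hspa5 core: gggcgtagcaaTGACGTGagttgcggagg
Herpud1 second element: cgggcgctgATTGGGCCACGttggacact
Herpud1 ATF4 element: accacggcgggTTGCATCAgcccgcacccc
Trib3 ATF4 element: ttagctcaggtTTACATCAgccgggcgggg
The Hspa5 stretches lie at chr2:34772020-34772048 and chr2:34771922-34771950 on the plus strand, and the first of them falls in an exon of the GENCODE M21 annotation, whose start for the gene is upstream of that of RefSeq. The Herpud1 stretches lie at chr8:94386368-94386396 and chr8:94386306-94386335 on the plus strand, outside any annotated exon. The Trib3 stretch lies at chr2:152344028-152344057 on the minus strand, the strand of the gene, and its match is after the RefSeq start site. The ATF4 elements of Herpud1 and Trib3 are on the opposite strand, so the capitals show the reverse complement of the letters searched. A match of letters is a description and no evidence of binding.

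Libraries held 15530352 to 25602500 counts. The reads had no molecular identifiers, and the 95% intervals cover only the spread between libraries. Ch25h had 0 counts in all 8 Ch25h-/- libraries and 5 to 30 counts in the 8 others. Prnp, the prion protein gene whose promoter drives some tau lines, was 708 to 839 CPM (counts scaled to a common library size) in the 8 Tau- libraries and 1414 to 1935 CPM in the 8 Tau+ libraries. The sample labels give frontal cortex and the series design gives hippocampus as the tissue. In all libraries 4 cortical markers (Cux2, Rorb, Fezf2 and Tbr1) summed to 394 to 507 CPM against 24.5 to 68.0 CPM for 3 hippocampal ones (Prox1, Fibcd1 and Lct). The libraries fell into 2 classes by a ribosomal RNA entry, CT010467.1. It was at 2289 to 5684 CPM of total counts in 7 of the 8 Ch25h-/- libraries, called rRNA-rich here, and at 111 to 475 in the other 9. The exception was replicate 1 of Ch25h-/- Tau+, at 153. Ch25h loss and library class therefore cannot be told apart, whereas tau was compared within the rRNA-poor class in Ch25h+/+.

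None of the 10 genes passed an adjusted p of 0.05 in any comparison (edgeR quasi-likelihood test, Benjamini-Hochberg over all genes). For the tau effect in Ch25h+/+ (Tau+ minus Tau-) this was 0 of 10 genes against 1.56% of all genes tested. For the tau effect in Ch25h-/- it was 0 against 0.0395%, for Ch25h loss (-/- minus +/+) in Tau- 0 against 1.03%, for Ch25h loss in Tau+ 0 against 3.55%, and for the interaction of both 0 against 0.0338%. At these shares of all genes, a count of 0 in 10 genes sets them apart from no other genes. Before adjustment, 1 gene, Xbp1, had a p under 0.05 in the tau effect in Ch25h+/+, against 9.38% of all genes. No gene of the 10 did so in the tau effect in Ch25h-/- (3.68% of all genes), in Ch25h loss in Tau- (20.9%), in Ch25h loss in Tau+ (23.9%) or in the interaction (4.13%). In the same order DESeq2 gave 1 (Xbp1), 0, 0, 0 and 0 genes with an unadjusted p under 0.05, against 9.42%, 3.54%, 21.2%, 23.9% and 4.07% of all genes. Limma-voom gave 2 (Hspa5 and Xbp1), 1 (Ddit3), 1 (Atf4), 0 and 0, against 14.5%, 4.69%, 25.3%, 28.1% and 6.69%. Neither called a gene of the 10 after adjustment, with Trib3 given no adjusted p by DESeq2 for Ch25h loss in Tau- or Tau+. In no comparison of 2 groups did the libraries lie apart for any of the 10 genes, against 5.86%, 2.14%, 16.2% and 10.2% of all genes.

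**Figure D1:**
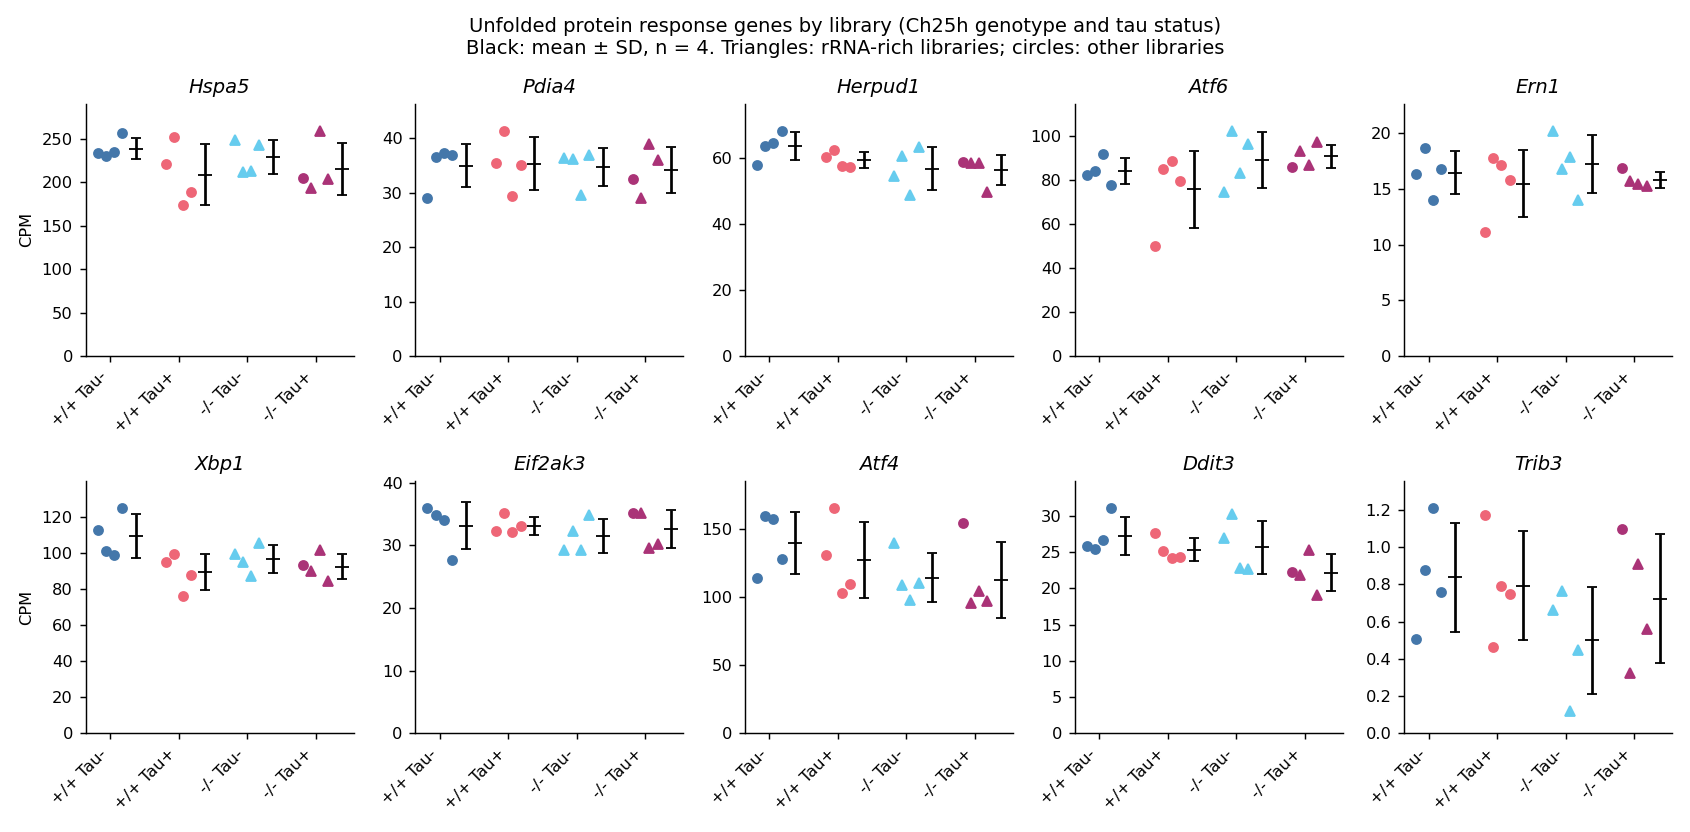
CPM (vertical axis, from 0) of each of the 10 genes in each library (points), by Ch25h genotype and tau status, with the mean ± SD of 4 libraries in black; triangles are rRNA-rich libraries. In each of the 4 comparisons of groups the ranges overlap for every gene, and Hspa5 runs from 174 to 259 CPM over all libraries.

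The width of the intervals says how large a change these libraries could have missed. Leaving out Trib3, which has few reads, the 95% intervals of the other 9 genes lay within 0.714-fold and 1.20-fold for the tau effect in Ch25h+/+ and within 0.737-fold and 1.26-fold for the tau effect in Ch25h-/-. For Ch25h loss they lay within 0.641-fold and 1.29-fold in Tau- and within 0.695-fold and 1.45-fold in Tau+. The intervals of the interaction lay within 0.736-fold and 1.53-fold. The median log2 fold change of the 10 genes was -0.11 for the tau effect in Ch25h+/+ (all genes -0.01), with 9 of 10 values below 0. One of the 9, Eif2ak3, was at -0.00055 and changed sign in 19 of 24 alternative fits. The median was -0.02 for the tau effect in Ch25h-/- (all genes 0.01), with 7 below 0, and -0.08 (all genes 0.01) and -0.04 (all genes 0.00) for Ch25h loss in Tau- and Tau+, with 8 and 6 below 0. For the interaction it was 0.10 (all genes 0.02), with 3 below 0 and 7 above.

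**Figure D2:**
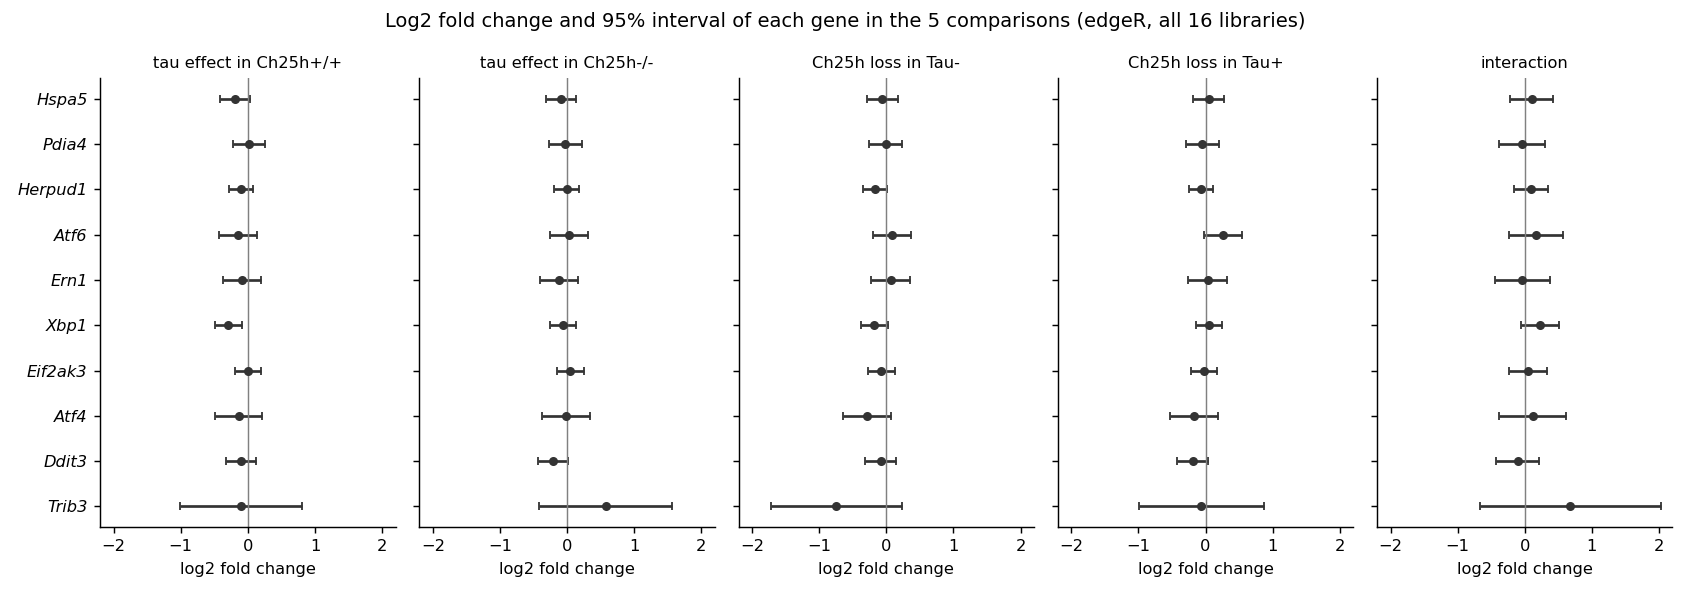
Log2 fold change (horizontal axis) of each of the 10 genes in the 5 comparisons, with its 95% interval from edgeR over all 16 libraries. Xbp1 in the tau effect in Ch25h+/+ has the only interval that leaves out 0 (-0.49 to -0.09), and the intervals of Trib3 are the widest.

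Levels differed more between the genes than between the groups. Per kilobase of exon, Hspa5 and Atf4 stood highest at 52.7 ± 6.09 and 52.3 ± 10.4 CPM per kilobase (SD, n = 16), and their ranges overlapped. Xbp1 and Herpud1 came next at 29.9 ± 3.55 and 25.2 ± 2.18, again with overlapping ranges. Ddit3 at 14.7 ± 1.80 and Pdia4 at 14.5 ± 1.56 could not be ordered either. Of the sensors, Atf6 was at 9.21 ± 1.29 and Eif2ak3 at 5.40 ± 0.438 CPM per kilobase, and Ern1 was lower at 1.99 ± 0.258. The ranges of Atf6 and Eif2ak3 overlapped only through the lowest Atf6 library, replicate 1 of Ch25h+/+ Tau+. Trib3 was lowest at 0.335 ± 0.143. The coefficient of variation over the 16 libraries ran from 8.11% in Eif2ak3 to 42.6% in Trib3, with 19.9% in Atf4.

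Among the chaperones and genes of protein disposal, Hspa5 (chromosome 2, 34771970 to 34777547, plus strand) encodes BiP, the main Hsp70 chaperone of the ER. Its 4 libraries had 234, 230, 234 and 256 CPM in Ch25h+/+ Tau-, 222, 252, 174 and 188 CPM in Ch25h+/+ Tau+, 249, 212, 213 and 242 CPM in Ch25h-/- Tau-, and 205, 194, 259 and 204 CPM in Ch25h-/- Tau+. Within Ch25h+/+, Tau+ ran from 174 to 252 CPM against 230 to 256 CPM in Tau-. Within Ch25h-/-, Tau+ ran from 194 to 259 CPM against 212 to 249 CPM in Tau-, so the groups overlapped in both. The tau effect on Hspa5 in Ch25h+/+ was a log2 fold change of -0.19 (SE 0.11, edgeR adjusted p = 0.664), and -0.11 without replicate 3 of Ch25h+/+ Tau+. Pdia4 (chromosome 6, 47796141 to 47813430, minus strand), a disulfide isomerase that helps proteins fold, had group means of 34.1 to 35.3 CPM and a range of 29.1 to 41.4 CPM over all libraries. Herpud1 (chromosome 8, 94386438 to 94395377, plus strand), a membrane protein of ER-associated degradation, was at 63.4 ± 4.28 CPM in Ch25h+/+ Tau- and 59.2 ± 2.47 CPM in Ch25h+/+ Tau+ (SD, n = 4). It was at 56.6 ± 6.48 CPM in Ch25h-/- Tau- and 56.3 ± 4.46 CPM in Ch25h-/- Tau+ (SD, n = 4). The log2 fold change of Herpud1 was -0.16 (SE 0.09, edgeR adjusted p = 0.287) for Ch25h loss in Tau- and -0.10 (SE 0.08, adjusted p = 0.869) for tau in Ch25h+/+, and its libraries overlapped in both. The first value was -0.094 without replicate 3 of Ch25h-/- Tau- and -0.081 with library class as a covariate, and the second was -0.062 without replicate 4 of Ch25h+/+ Tau-.

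Of the sensors, Atf6 (chromosome 1, 170704674 to 170867771, minus strand), whose cleaved fragment is a transcription factor, had 1 library far below the rest. It was at 82.3, 84.1, 92.0 and 78.0 CPM in Ch25h+/+ Tau-, at 50.1, 85.2, 88.7 and 79.7 CPM in Ch25h+/+ Tau+, at 74.7, 103, 83.2 and 96.4 CPM in Ch25h-/- Tau-, and at 86.1, 93.2, 86.8 and 97.3 CPM in Ch25h-/- Tau+. The low library, replicate 1 of Ch25h+/+ Tau+, also had the lowest Ern1, 11.1 CPM. Atf6 had a log2 fold change of -0.15 (SE 0.13, edgeR adjusted p = 0.886) for tau in Ch25h+/+, which was 0.014 without that library, -0.23 without replicate 3 of the same group, -0.094 without replicate 3 of Ch25h+/+ Tau- and -0.052 with limma-voom. For Ch25h loss in Tau+ it was 0.26 (SE 0.13, adjusted p = 0.256), with overlapping libraries, and it was 0.097 without that same library, 0.17 with limma-voom and 0.14 after correction for GC content. Ern1 (chromosome 11, 106394650 to 106487852, minus strand), the kinase and RNase that splices Xbp1, had group means of 15.5 to 17.2 CPM. Eif2ak3 (chromosome 6, 70844515 to 70905245, plus strand), the kinase PERK that phosphorylates eIF2α, had group means of 31.5 to 33.1 CPM. Eif2ak3 shares 485 exonic bases (8.05% of its own) with Gm43292 on the opposite strand, and the use of strand in counting is not given in the sources used here, so its counts are uncertain to that extent.

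Xbp1 (chromosome 11, 5520659 to 5525893, plus strand), the transcription factor made active when IRE1α splices its messenger RNA, had the smallest p of the 10 genes. Its counts were 113, 101, 98.8 and 125 CPM in Ch25h+/+ Tau- and 94.8, 99.2, 76.1 and 87.6 CPM in Ch25h+/+ Tau+. These groups overlapped by 1 library in each, 99.2 CPM with tau against 98.8 CPM without. In Ch25h-/-, Xbp1 was at 99.3, 95.2, 87.0 and 105 CPM in Tau- and at 93.5, 90.3, 102 and 84.6 CPM in Tau+, and both groups lay mostly between the means of the Ch25h+/+ groups, 109 and 89.5 CPM. The tau effect in Ch25h+/+ was a log2 fold change of -0.29 (SE 0.09, 95% interval -0.49 to -0.09), with an unadjusted p of 0.00621 and an adjusted p of 0.195 in edgeR. Limma-voom gave an adjusted p of 0.0864, the smallest for Xbp1 among the alternatives. The tau effect was not shown to depend on Ch25h, since the interaction was 0.23 (SE 0.13, edgeR adjusted p = 0.999963). Ch25h loss in Tau- gave -0.18 (SE 0.09, edgeR adjusted p = 0.288), and -0.11 without replicate 4 of Ch25h+/+ Tau-. Astrocyte markers (Aqp4, Slc1a3, Aldh1l1, Gja1 and Gfap), none at 0, moved with the same comparison, from a sum of 863 to 908 CPM in Ch25h+/+ Tau- to 1170 to 2282 CPM in Ch25h+/+ Tau+. Most of this was Gfap, with a mean of 139 ± 17.0 CPM against 762 ± 374 CPM (SD, n = 4), and the means of the other 4 were higher too, Aqp4 at 77.5 and 111 CPM, Slc1a3 at 449 and 511 CPM, Aldh1l1 at 70.8 and 77.0 CPM and Gja1 at 153 and 174 CPM. Microglial markers (Csf1r, C1qa, Cx3cr1 and P2ry12), none at 0, moved from 208 to 223 CPM to 326 to 403 CPM. Their means were 92.5 and 131 CPM for Csf1r, 45.9 and 117 CPM for C1qa, 51.6 and 73.7 CPM for Cx3cr1 and 24.96 and 28.0 CPM for P2ry12. Neuronal markers (Rbfox3, Snap25, Syt1, Slc17a7 and Gad1) summed to 6087 to 6527 CPM in Ch25h+/+ Tau- and 5814 to 6472 CPM in Ch25h+/+ Tau+, with overlap. The part of these markers in the Xbp1 value was not tested, and in bulk tissue fewer cells of a type and less RNA per cell cannot be told apart. Markers of plasma cells (Jchain, Mzb1 and Igha) summed to 0.259 to 1.42 CPM.

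Atf4 (chromosome 15, 80255184 to 80257541, plus strand), the factor whose translation rises when eIF2α is phosphorylated, varied most among the well measured genes. It was at 114, 160, 157 and 128 CPM in Ch25h+/+ Tau-, at 131, 165, 103 and 109 CPM in Ch25h+/+ Tau+, at 140, 109, 97.8 and 110 CPM in Ch25h-/- Tau-, and at 154, 95.3, 104 and 96.7 CPM in Ch25h-/- Tau+. The library at 154 CPM is replicate 1, the only Ch25h-/- library of the rRNA-poor class, and it lay among the higher Ch25h+/+ libraries while the other 3 of its group lay at 95.3 to 104 CPM. By class, Atf4 had a median of 104 CPM (95.3 to 140) in the 7 rRNA-rich libraries and of 131 CPM (103 to 165) in the 9 others. Ch25h loss gave a log2 fold change of -0.29 (SE 0.17, edgeR adjusted p = 0.335) in Tau- and -0.17 (SE 0.17, adjusted p = 0.566) in Tau+. Without replicate 1 the value in Tau+ was -0.38 (SE 0.15, unadjusted p = 0.0248, edgeR adjusted p = 0.124). Without replicate 2 of Ch25h+/+ Tau+, the highest library at 165 CPM, it was -0.037, and without replicate 2 or 4 of Ch25h-/- Tau+ it was -0.11 and -0.12. After correction for GC content it was -0.073, and without replicate 3 of Ch25h+/+ Tau+ it was -0.26. The value in Tau- was -0.17 after correction for GC content. With library class as a covariate the values were 0.35 in Tau- and 0.28 in Tau+, the other sign. That covariate rests within Ch25h-/- on 1 rRNA-poor library. The sign of the Atf4 value on Ch25h loss thus turned with that covariate. The tau effect in Ch25h-/- on Atf4 was a log2 fold change of -0.02 (SE 0.17, unadjusted p = 0.918, edgeR adjusted p = 0.999984). Within the rRNA-rich class, that is without replicate 1 of Ch25h-/- Tau+, it was -0.22 (SE 0.15, unadjusted p = 0.177, edgeR adjusted p = 0.999688). It was 0.088 without replicate 1 of Ch25h-/- Tau- and 0.049, 0.011 and 0.046 without replicates 2, 3 and 4 of Ch25h-/- Tau+, so both its sign and its size rested on single libraries. It was -0.21 with library class as a covariate and -0.11 with limma-voom.

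**Figure D3:**
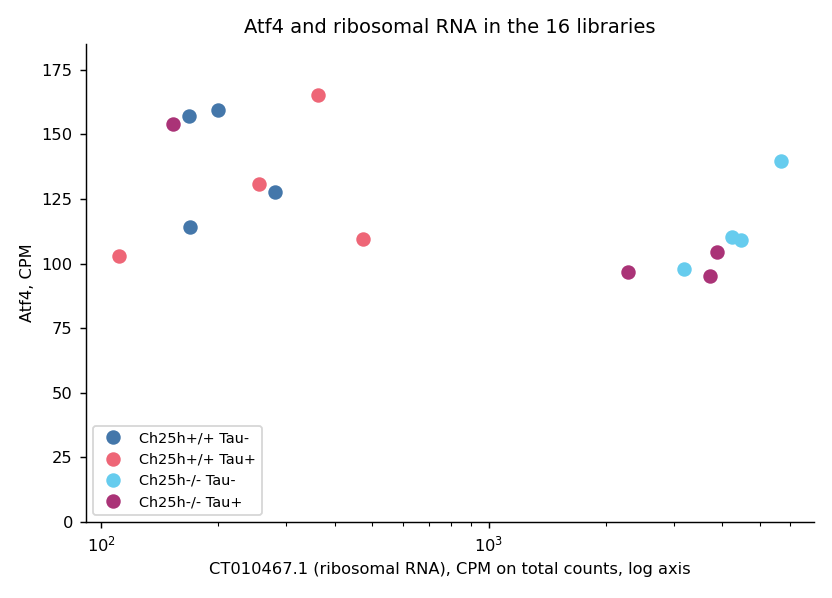
Atf4 (vertical axis, CPM, from 0) against the ribosomal RNA entry CT010467.1 (horizontal axis, CPM of total counts, log scale) in the 16 libraries, coloured by group. The 7 libraries on the right, all Ch25h-/-, have 95.3 to 140 CPM of Atf4, and the 1 Ch25h-/- library on the left has 154 CPM.

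The late genes of the ATF4 branch did not pass either. Ddit3 (chromosome 10, 127290774 to 127296288, plus strand) encodes CHOP, a factor of lasting stress and cell death. It had 25.9, 25.4, 26.6 and 31.1 CPM in Ch25h+/+ Tau-, 27.6, 25.2, 24.2 and 24.3 CPM in Ch25h+/+ Tau+, 26.9, 30.3, 22.8 and 22.6 CPM in Ch25h-/- Tau-, and 22.2, 21.9, 25.3 and 19.1 CPM in Ch25h-/- Tau+. The Ch25h-/- Tau+ group held the lowest libraries and overlapped with both groups it was compared with. Its log2 fold change was -0.21 (SE 0.11, unadjusted p = 0.0665, edgeR adjusted p = 0.999984) for tau in Ch25h-/- and -0.19 (SE 0.11, adjusted p = 0.290) for Ch25h loss in Tau+. The first of these was -0.13 without replicate 2 of Ch25h-/- Tau-. A second entry named Ddit3, a gene model with 105 exonic bases inside the first, had 0 counts in all libraries. Ddit3 shares 68 exonic bases (3.97% of its own) with Mars on the opposite strand. Trib3 (chromosome 2, 152337422 to 152344032, minus strand), a pseudokinase that ATF4 and CHOP induce and that restrains the response, had 2 to 28 counts per library. Group means of Trib3 were 0.837 ± 0.291 and 0.793 ± 0.291 CPM (SD, n = 4) in Ch25h+/+ without and with tau, and 0.499 ± 0.285 and 0.723 ± 0.345 CPM in Ch25h-/- without and with tau. The lowest library, replicate 3 of Ch25h-/- Tau-, had 0.121 CPM from 2 counts. Ch25h loss in Tau- gave Trib3 a log2 fold change of -0.74 with a 95% interval of -1.72 to 0.23, which spans 0.304-fold to 1.17-fold at this depth. The value turned to 0.11 with library class as a covariate, and was -0.42 without the library of 2 counts and -0.50 without replicate 3 of Ch25h+/+ Tau-.

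Other genes of the response were read from 7 lists. In the tau effect in Ch25h+/+, the tau effect in Ch25h-/-, Ch25h loss in Tau- and the interaction, edgeR called none of the 80 genes tested. Those with an unadjusted p under 0.05 numbered 9, 3, 21 and 3 in that order, against 9.38%, 3.68%, 20.9% and 4.13% of all genes. DESeq2 called 1, 0, 7 and 0 of the 80 genes, against 2.39%, 0.0790%, 10.04% and 0.310% of the genes to which it gave an adjusted p. Limma-voom called 1, 0, 7 and 0, against 2.81%, 0.0338%, 7.83% and 0.0338% of all genes. Of the 14 ER chaperones and folding enzymes tested, 11 were below 0 for tau in Ch25h+/+, with a median log2 fold change of -0.09 against -0.01 over all genes and 1 gene with an unadjusted p under 0.05. The 10 XBP1-dependent secretory pathway genes had a median of 0.03 there and the 13 ER-associated degradation genes -0.03, each with 1 unadjusted p under 0.05. The 23 ATF4 target genes tested had a median of 0.01 and 4 such genes. The 1 call of DESeq2 and of limma-voom for tau in Ch25h+/+ was in the list of the other eIF2α kinases. Eif2ak2, the kinase PKR that double-stranded RNA and interferon switch on, had the smallest p of that list and is named after its values were seen. It was at 5.54, 3.72, 4.70 and 4.33 CPM in Ch25h+/+ Tau- and at 6.53, 8.29, 7.58 and 7.94 CPM in Ch25h+/+ Tau+, with no overlap, at a log2 fold change of 0.73 (edgeR unadjusted p = 0.00351, adjusted p = 0.136). In Ch25h-/-, Eif2ak2 was at 3.79 to 7.05 CPM in Tau- and 5.52 to 10.4 CPM in Tau+, with overlap. The edgeR p for tau there was under 0.05 before adjustment and 0.999984 after it.

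In Ch25h loss in Tau+, 4 of 23 ATF4 target genes fell and none rose, where 2.40% of all genes were called lower and 1.14% higher. Their median log2 fold change was -0.19 (all genes 0.00), and 22 of 23 values were below 0. Cebpb, a C/EBP factor, fell by 0.84 on the log2 scale (SE 0.14, edgeR adjusted p = 0.00402), from 21.1, 19.4, 16.04 and 20.1 CPM in Ch25h+/+ Tau+ to 13.7, 8.58, 10.4 and 9.74 CPM in Ch25h-/- Tau+. Atf3, a stress factor downstream of ATF4, fell by 2.09 (SE 0.43, edgeR adjusted p = 0.0162), from 28 to 93 counts per library to 4 to 25 counts. Phgdh, which starts serine synthesis, fell by 0.40 (SE 0.09, edgeR adjusted p = 0.0307), and Slc3a2, a subunit of amino acid transporters named after its values were seen, fell by 0.34 (SE 0.09, adjusted p = 0.0462). Libraries lay apart for Cebpb, Atf3 and Phgdh and overlapped for Slc3a2. With 1 of 16 libraries left out, the call of Cebpb was kept in every fit and that of Atf3 was lost in 3 (replicate 4 of Ch25h+/+ Tau+, replicates 3 and 4 of Ch25h-/- Tau+). That of Phgdh was lost in 5 (the same 3, replicate 1 of Ch25h+/+ Tau+ and replicate 2 of Ch25h-/- Tau+). That of Slc3a2 was lost in 11, and was kept without replicate 3 of Ch25h+/+ Tau+, replicates 1, 3 or 4 of Ch25h-/- Tau- or replicate 1 of Ch25h-/- Tau+. DESeq2 called 5 genes of this list, against 9.54% of all genes to which it gave an adjusted p, and limma-voom 6, against 10.6% of all genes. For Ch25h loss in Tau-, 9 of the 23 had an unadjusted p under 0.05, where 20.9% of all genes did, with 18 below 0 and a median of -0.20. EdgeR called none of them there, DESeq2 3 (10.04% of all genes with an adjusted p) and limma-voom 4 (7.83% of all genes).

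The other calls of that comparison were single genes. Among 12 signalling partners and regulators tested, Mbtps2, the protease that makes the last cut in ATF6, rose by 0.37 on the log2 scale (SE 0.10, edgeR adjusted p = 0.0484), and Creb3, an ER-bound factor related to ATF6, fell by 0.38 (SE 0.10, adjusted p = 0.0493). Both lie close to the threshold. Of 16 fits that each left out 1 library, 14 did not call Mbtps2, the exceptions being those without replicate 2 of Ch25h+/+ Tau+ or replicate 1 of Ch25h-/- Tau+. The call of Creb3 was lost in 11 of the 16, and was kept without replicate 2 or 3 of Ch25h+/+ Tau+, replicate 1 or 4 of Ch25h-/- Tau- or replicate 1 of Ch25h-/- Tau+. Among 5 genes of death under ER stress, Bbc3, which encodes the pro-death protein PUMA, fell by 0.65 (SE 0.13, edgeR adjusted p = 0.0121), from 15.6, 12.6, 11.3 and 13.1 CPM to 8.18, 8.19, 8.98 and 8.12 CPM. No ER chaperone, XBP1-dependent, degradation or eIF2α kinase gene was called by edgeR for Ch25h loss in Tau+. Of these lists 2, 0, 4 and 1 genes had an unadjusted p under 0.05, in a comparison where 23.9% of all genes did. DESeq2 called 2, 0, 2 and 0 genes of those lists, 3 of the signalling partners and 1 of the death genes, and limma-voom the same numbers, against 9.54% and 10.6% of all genes.

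Glial markers moved with this comparison too. The astrocyte markers named above summed to 1170 to 2282 CPM in Ch25h+/+ Tau+ and 931 to 1127 CPM in Ch25h-/- Tau+, and the microglial ones to 326 to 403 CPM and 203 to 247 CPM, with no overlap in either and none at 0. Most of the difference in the astrocyte sum was in Gfap, with a mean of 762 ± 374 CPM against 197 ± 73.5 CPM (SD, n = 4), and the means of the other 4 were lower too, Aldh1l1 at 77.0 and 65.1 CPM, Gja1 at 174 and 148 CPM, Slc1a3 at 511 and 500 CPM and Aqp4 at 111 and 103 CPM. Libraries lay apart for Gfap and Aldh1l1 and overlapped for Gja1, Slc1a3 and Aqp4. In the microglial sum, C1qa had means of 117 and 40.2 CPM and Csf1r of 131 and 94.4 CPM, both with libraries apart. Cx3cr1 had means of 73.7 and 54.8 CPM and P2ry12 of 28.0 and 32.8 CPM, both with overlap. The part of these markers in the ATF4 target and Bbc3 calls was not tested.

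Library class moved with some of these calls. Phgdh was at 52.2 to 63.1 CPM in the 7 rRNA-rich libraries and at 63.5 to 90.2 CPM in the 9 others, and replicate 1 of Ch25h-/- Tau+, rRNA-poor, had 70.3 CPM. Slc3a2 was likewise apart by class, at 103 to 119.9 CPM against 120.5 to 172 CPM, with 132 CPM in that replicate, and so was Mbtps2, at 31.8 to 40.5 CPM against 24.3 to 30.8 CPM, with 29.3 CPM in it. The other 4 genes overlapped between the classes. Cebpb was at 8.58 to 16.01 CPM in the rRNA-rich libraries and 13.7 to 21.1 CPM in the others, and Atf3 at 0.227 to 2.11 CPM and 0.820 to 4.34 CPM. In that replicate Cebpb (13.7 CPM) and Atf3 (0.978 CPM) were below every Ch25h+/+ Tau+ library. Bbc3 had 8.18 CPM in it, as low as the rRNA-rich libraries of its group (8.12 to 8.98 CPM). With class as a covariate all 7 genes lost the call (edgeR adjusted p = 0.656 to 0.982), and the count of ATF4 targets called was 0. That fit called 10 of all genes tested, against 629 in the main fit. The log2 fold change of Bbc3 was then -0.69 against -0.65, with an SE of 0.21 against 0.13, and that of Atf3 -1.51 against -2.09. Cebpb went from -0.84 to -0.48, Phgdh from -0.40 to -0.24, Slc3a2 from -0.34 to -0.19, Creb3 from -0.38 to -0.18 and Mbtps2 from 0.37 to 0.07. The part of class in these calls cannot be told apart from that of Ch25h loss. After correction for GC content, Cebpb (log2 fold change -0.51, edgeR adjusted p = 0.0260) and Atf3 (-2.08, adjusted p = 0.0242) were still called. The other 5 were not (adjusted p = 0.125 to 0.283), and Bbc3 was then -0.30, Mbtps2 0.18, Phgdh -0.28, Slc3a2 -0.24 and Creb3 -0.31. The count of ATF4 targets was 6 without replicate 1 of Ch25h-/- Tau+, 1 without replicate 3 or replicate 4 of that group or replicate 4 of Ch25h+/+ Tau+, and 2 without replicate 2 of Ch25h-/- Tau+ or replicate 1 of Ch25h+/+ Tau+. In the same order those fits called 1691, 117, 151, 108, 218 and 269 of all genes.

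**Figure D4:**
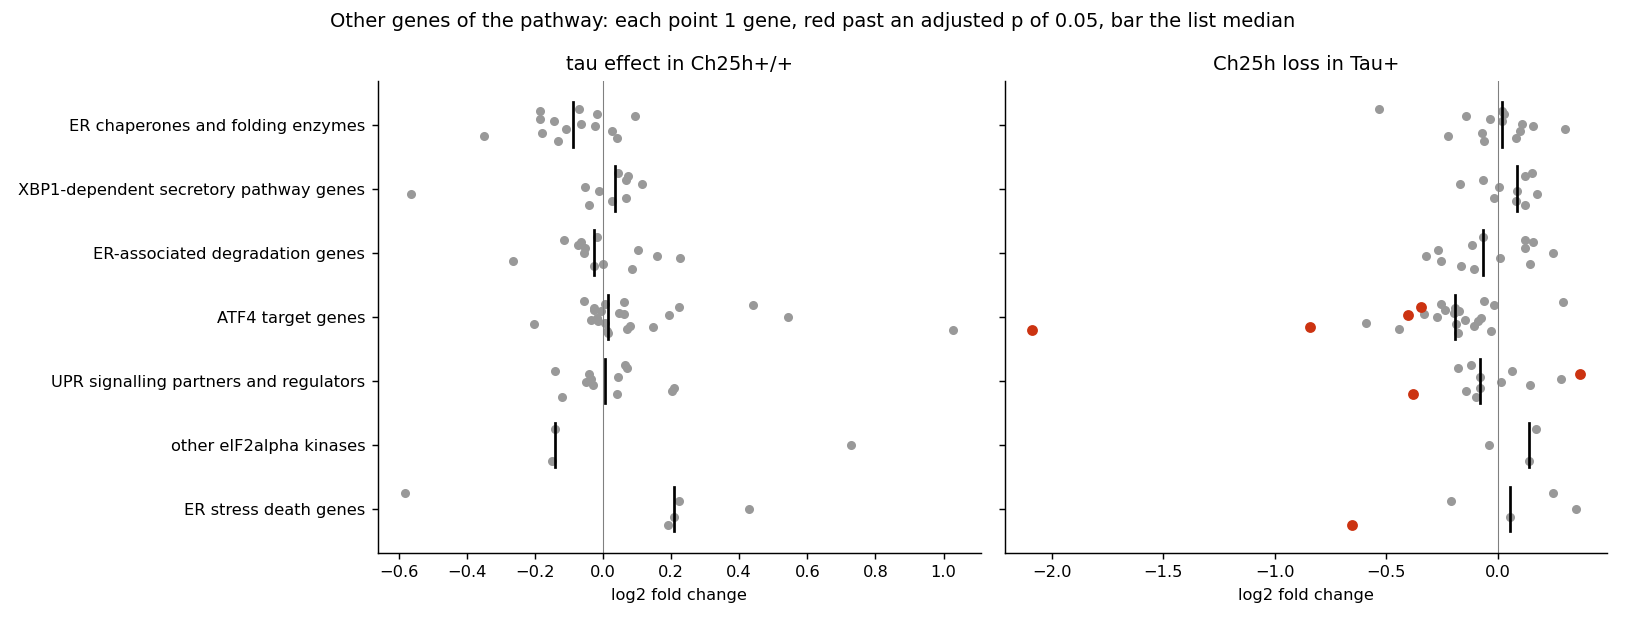
Log2 fold change (horizontal axis) of each gene of the 7 lists, 1 point a gene, with the list median as a bar, for the tau effect in Ch25h+/+ and for Ch25h loss in Tau+; red points passed an adjusted p of 0.05 in edgeR. No point is red for tau in Ch25h+/+, and 4 of 23 ATF4 targets are red, all lower, for Ch25h loss in Tau+.

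Within the groups, the Hspa5 and Xbp1 values of a library tended to deviate in the same direction. For this, each library's deviation from its group mean, in log2(CPM + 0.5), was correlated between the 10 genes over the 16 libraries, in 45 pairs. Hspa5 and Xbp1 had a Pearson r of 0.801 (permutation within groups p = 0.00035, adjusted over 45 pairs 0.0157) and a Spearman rho of 0.768 (permutation p = 0.00125, adjusted 0.0427). The libraries farthest out in Hspa5 were replicate 2 of Ch25h+/+ Tau+ and replicate 3 of Ch25h-/- Tau+. Without them r was 0.765 (permutation p = 0.00837, adjusted 0.173), which did not pass. Leaving out 1 library at a time gave r of 0.730 to 0.833, and the adjusted p did not pass in 7 of 16 cases (0.0522 to 0.106). These were each of the 4 replicates of Ch25h+/+ Tau+, replicates 2 and 4 of Ch25h+/+ Tau- and replicate 3 of Ch25h-/- Tau+. The r was 0.826 within the 8 Ch25h+/+ libraries and 0.808 within the 7 rRNA-rich libraries. Hspa5 and Pdia4 had r = 0.725 (permutation p = 0.00464, adjusted 0.104) and rho = 0.721 (permutation p = 0.0019, adjusted 0.0427), and r was 0.538 without those libraries. Over all 45 pairs, 28 correlations were positive and the median was 0.18. No other pair passed by either measure. How often other pairs of genes reach such an r in these libraries was not tested. Without centring on the groups, Xbp1 was closer to Baiap2 (r = 0.891), a gene in none of the lists, than to Hspa5 (r = 0.827). Markers of the choroid plexus (Ttr, Folr1, Kl, Aqp1 and Kcne2), a secretory tissue in the ventricles of the brain, none at 0 in all libraries, summed to 12.7 to 2706 CPM and varied widely within every group, and their part in these deviations was not tested.

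**Figure D5:**
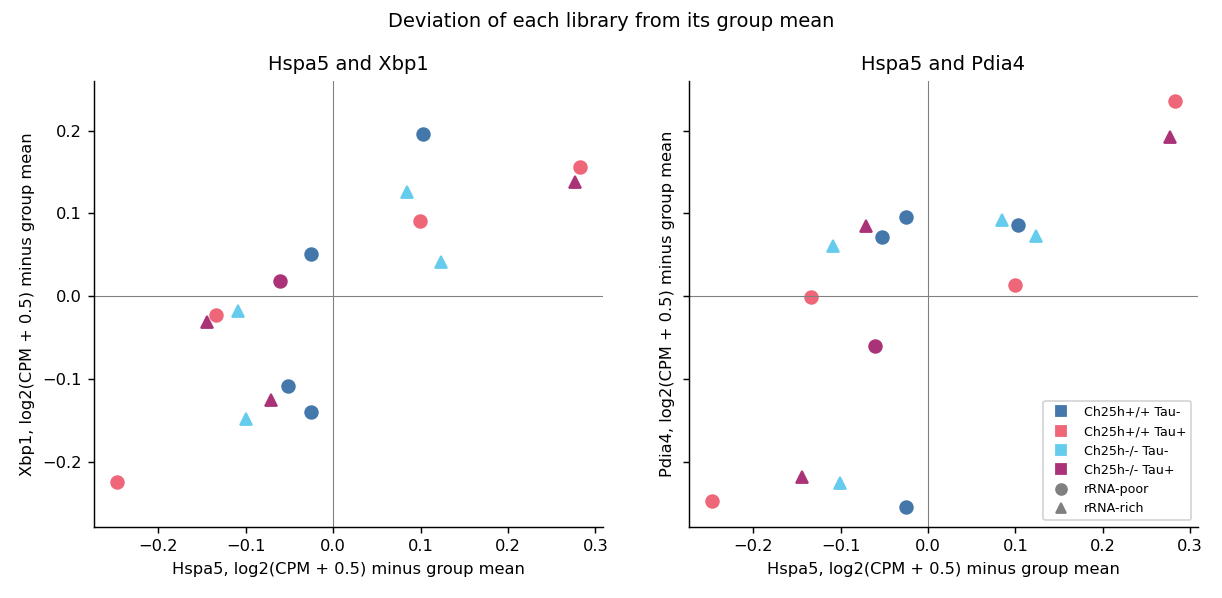
Deviation of each library from its group mean in Xbp1 (left) and Pdia4 (right) against Hspa5, in log2(CPM + 0.5), coloured by group, with triangles for rRNA-rich libraries. Hspa5 and Xbp1 deviate together (r = 0.801), and points of all groups lie along the same trend.

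Across the 16 libraries, without centring on the groups, the genes most like Hspa5 were Manf (r = 0.870), Cbln4 (0.852), Pdia6 (0.849), Xbp1 (0.827) and Dnajb11 (0.814), among 11019 genes with enough reads. Manf, Pdia6 and Dnajb11 encode ER proteins that were also in the list of chaperones and folding enzymes. The genes most like Xbp1 were Baiap2 (r = 0.891), Cbfa2t3 (0.888), Spata2l (0.868), Manf (0.851) and Dnajb5 (0.835). Trib3, with its few reads, was most like Ier3 (r = 0.834), Dcdc2a (0.823), Tmem205 (0.805), Snapc5 (0.804) and Eif1ad (0.771), none of them in a list. These correlations carry no test, and the 16 libraries they describe differ in depth and in library class.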

How the data were processed

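The deposited table holds raw counts per gene and library, not normalized by the authors, checked to be whole numbers. The submitters' processing notes name STAR 2.7 and GRCm38 (mm10), and the counting program and the use of strand are not given in the sources used here. Groups came from the genotype labels, and replicate numbers follow record order with no pairing. Genes passed filterByExpr and were tested with edgeR 4.0.16 (quasi-likelihood, two-sided, TMM) in R 4.3.3, in 1 fit of 16 libraries with 1 mean per group and Benjamini-Hochberg adjustment over all 17736 genes at 0.05. Alternatives were DESeq2's kind of size factor (relative log expression), a filter of 1 count or of a mean of 50, DESeq2 1.42.0, limma-voom with quality weights (limma 3.58.1), only the groups compared, a class covariate (rRNA-rich: CT010467.1 over 1000 CPM of total counts), GC-corrected offsets and leaving out each library. CPM used TMM-scaled totals. Correlations used log2(CPM + 0.5) and 100000 permutations within groups, two-sided. Positions and exon lengths came from GENCODE M21. Named were the 10 genes, of each list and comparison up to 3 called genes with the smallest p, label checks, markers, and the 5 genes most like Hspa5, Xbp1 and Trib3. The main edgeR fit was tested on simulated counts. The members and lists were chosen with earlier results of these data known. Of the listed genes, Gdf15, Fgf21 and Ern2 did not pass the filter. Of the markers, 1 microglial and 1 cortical gene are not reported here.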

Additional observations from a re-analysis of the deposited data

Results flagged for a closer look

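In 40 groups of 4 libraries (10 genes in 4 groups), 5 had a library far from the other 3 by Dixon's criterion at the 95% level. Hspa5 had its highest library in Ch25h+/+ Tau- at 256 CPM, with the others at 230 to 234 CPM. Atf4 had its highest library in Ch25h-/- Tau+ at 154 CPM, with the others at 95.3 to 104 CPM, and this is the group's only rRNA-poor library. Herpud1 had its lowest library in Ch25h-/- Tau+ at 49.6 CPM, with the others at 58.4 to 58.7 CPM. Pdia4 had its lowest library at 29.1 CPM in Ch25h+/+ Tau- (others 36.6 to 37.2 CPM) and at 29.5 CPM in Ch25h-/- Tau- (others 36.1 to 36.9 CPM). Chance alone flags about 1 in 20 groups.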

How the results depend on the processing

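No gene of the 10 passed in any comparison under any alternative that gave it an adjusted p, of 24 alternatives per comparison and 23 for the interaction, which has no fit of only the groups compared. Trib3 had no value under the filter of 50 counts and no adjusted p in DESeq2 for Ch25h loss in Tau- or Tau+. The smallest adjusted p was 0.0864 (Xbp1, tau in Ch25h+/+, limma-voom). Of the 50 log2 fold changes (10 genes, 5 comparisons), 27 changed sign under at least 1 alternative, namely 23 of the 35 that were no larger than their SE and 4 of the 15 larger ones. Those 4 were Atf6 in the tau effect in Ch25h+/+ without replicate 1 of Ch25h+/+ Tau+ (log2 fold change 0.014, with -0.23 to 0.014 over all libraries left out 1 at a time) and, with the class covariate, Atf4 (0.35) and Trib3 (0.11) in Ch25h loss in Tau- and Atf4 in Ch25h loss in Tau+ (0.28). Of the smaller ones, Atf4 in the tau effect in Ch25h-/- (-0.02) ran from -0.22 to 0.088 over libraries left out. Of the correlated pairs, 1 passed with Pearson, 2 with Spearman and 0 without the 2 farthest libraries. Leaving out each library, added after seeing the data, gave 0 to 3 pairs. Counts over all genes moved more. For tau in Ch25h+/+ they were 277 against 424 (DESeq2) and 498 (limma-voom), and 160 to 299 without 1 library. For tau in Ch25h-/- they were 7 against 28 (no filter), 2 (mean of 50 counts) and 14 (DESeq2), and 6 to 13 without 1 library. For Ch25h loss in Tau- they were 182 against 522 (no filter), 1124 (DESeq2), 1388 (limma-voom), 1229 (only the groups compared), 0 (class covariate) and 12 (GC offsets), and 3 to 1306 without 1 library. For Ch25h loss in Tau+ they were 629 against 1494 (DESeq2), 1883 (limma-voom), 106 (only the groups compared), 10 (class covariate) and 206 (GC offsets), and 108 to 1691 without 1 library. For the interaction they were 6 against 57 (no filter), 55 (DESeq2) and 3 (class covariate), and 0 to 22 without 1 library. The call was lost in 1 of 24 alternatives for Cebpb, 4 of 23 for Atf3, 8 for Phgdh, 14 for Slc3a2 and Creb3, 18 for Mbtps2 and 2 for Bbc3. ATF4 targets called for Ch25h loss in Tau+ ran from 0 to 6, against 4, and chaperone and degradation genes from 0 to 2, against 0. All genes called in that comparison ran from 10 to 1883, against 629. The cause of these changes was not tested. No paired analysis was possible because the labels give no shared replicate numbers. Depth limits Trib3 most, at 2 to 28 counts per library.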
